A study of Mus musculus with 20 samples.

Results

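The genes described here are 10 genes of the periportal zone and of the urea cycle, Hal, Sds, Gls2, Cdh1, Ass1, Asl, Arg1, Cps1, Nags and Slc25a15. They were chosen by symbol from the 25444 loci of the deposited gene tables, each symbol had 1 locus, and all 10 passed the filter on low counts that left 13704 genes to be tested. The tissue was the left lateral liver lobe of 20 mice at 20 weeks of age, profiled by strand-specific RNA-seq of total RNA depleted of ribosomal RNA. The groups were C57BL/6N females (B6_F), C57BL/6N males (B6_M), C3H/HeN females (C3_F) and C3H/HeN males (C3_M), with 5 mice in each, and the labels name no treatment or introduced allele. All mice were housed singly with food available at all times and were killed during one part of the day. Each sex had its own housing room, so effects of room and of sex cannot be told apart. The libraries were distributed at random to 3 sequencing pools, with 8, 5 and 7 livers in pools 1, 2 and 3. Every group had 1 or 2 livers in every pool.

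Blood enters the liver lobule at the portal tracts and leaves it at the central vein, and hepatocytes along that path express different sets of genes. Periportal hepatocytes are known for the breakdown of amino acids, the making of glucose and the urea cycle, while hepatocytes around the central vein capture the remaining ammonia as glutamine. In the urea cycle, ammonia is built into carbamoyl phosphate inside the mitochondrion, and this is joined to ornithine to give citrulline. Urea is released in the cytosol when arginine is split, and ornithine returns to the mitochondrion. RNA from a whole lobe holds all zones together, so fewer cells of a type and less RNA per cell cannot be told apart.

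Of the 10 genes, 4 had a promoter window in the RefSeq table for GRCm38.p6, namely Hal, Ass1, Nags and Slc25a15, and the other 6 were Sds, Gls2, Cdh1, Asl, Arg1 and Cps1. The 250 bases before the start site are shown for Hal, which differed most between strains, for Nags, for which pool took the largest share of variance, and for Ass1, for which pool took the smallest. Capitals mark matches, on either strand, to the TATA motif (TATAA), the CCAAT box (CCAAT), the GC box (GGGCGG), the CREB core (TGACG) or the E-box (CACGTG).

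Hal, chr10:93488518-93488767, plus strand of GRCm38.p6: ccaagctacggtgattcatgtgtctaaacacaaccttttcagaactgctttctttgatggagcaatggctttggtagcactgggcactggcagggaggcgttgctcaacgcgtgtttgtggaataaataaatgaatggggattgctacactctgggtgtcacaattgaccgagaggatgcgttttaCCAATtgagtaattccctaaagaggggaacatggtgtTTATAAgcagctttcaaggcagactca
Nags, chr11:102145263-102145512, plus strand of GRCm38.p6: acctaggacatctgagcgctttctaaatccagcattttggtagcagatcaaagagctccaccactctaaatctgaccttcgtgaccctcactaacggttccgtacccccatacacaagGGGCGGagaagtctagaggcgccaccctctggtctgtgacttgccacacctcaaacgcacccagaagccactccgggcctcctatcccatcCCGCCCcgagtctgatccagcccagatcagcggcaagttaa
Ass1, chr2:31470020-31470269, plus strand of GRCm38.p6: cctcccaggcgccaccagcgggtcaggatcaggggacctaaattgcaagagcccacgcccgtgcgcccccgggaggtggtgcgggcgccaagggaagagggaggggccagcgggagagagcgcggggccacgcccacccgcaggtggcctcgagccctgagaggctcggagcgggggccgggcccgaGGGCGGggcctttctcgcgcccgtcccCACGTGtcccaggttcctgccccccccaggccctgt

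The Hal window held the CCAAT box, beginning 64 bases before the start, and the TATA motif on both strands as overlapping matches beginning 27 and 26 bases before it. Among all 32851 windows of the same length, 33.8% held the CCAAT box and 22.8% held the TATA motif. The Nags window held the GC box beginning 132 bases before the start and its reverse complement beginning 41 bases before it, and 32.7% of all windows held that motif. The Ass1 window held the GC box beginning 63 bases and the E-box beginning 36 bases before the start, and 6.02% of all windows held this E-box. The CREB core, found in 17.8% of all windows, matched none of these 3. These matches describe letters and not bound sites.

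Total counts lay between 27370921 and 46835745 per library and followed the pool, with 33107889 to 36673533 in pool 1, 27370921 to 31280663 in pool 2 and 38928480 to 46835745 in pool 3. Xist and Y-linked genes matched the labelled sex in 20 of 20 libraries, and replicates of a group correlated with r between 0.972 and 0.993 over log2 CPM. Hepatocyte markers, mostly Alb, summed to between 66400 and 154400 CPM, counts scaled to a common library size. Bile duct markers, mostly Spp1, summed to between 21.7 and 43.9 CPM and lymphocyte markers to at most 1.95 CPM. The beta globin genes Hbb-b1, Hbb-bs and Hbb-bt were at 0 counts in 20 libraries. Counting left out multimapping and multi-overlapping reads, so these zeros do not show that red cell RNA was absent.

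Expression levels were compared between genes as TPM, which divides by gene length and scales each library to a common total, and are given as the mean ± SD over 20 livers. Ass1, which joins citrulline to aspartate, stood at 2721 ± 565 TPM and ranked 46 among the 25444 loci. Cps1, which makes carbamoyl phosphate, followed at 2416 ± 448 TPM, and these 2 did not differ beyond their spread. Arg1, which splits arginine into urea and ornithine, stood at 1423 ± 216 TPM, and Asl, which releases arginine, at 446 ± 126 TPM.
Hal, the enzyme that begins histidine breakdown, stood at 261 ± 85.2 TPM, the liver glutaminase Gls2 at 233 ± 64.7 TPM and the mitochondrial ornithine carrier Slc25a15 at 177 ± 58.7 TPM. Within this run, neighbours differed by less than their SD. Sds, which breaks down serine, stood at 107 ± 58.0 TPM, Nags, which makes the activator that Cps1 needs, at 52.5 ± 15.7 TPM, and Cdh1, the adhesion protein E-cadherin, was lowest at 23.0 ± 6.50 TPM. The smallest count of any of the 10 genes in a library was 767, for Sds.

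**Figure D1:**
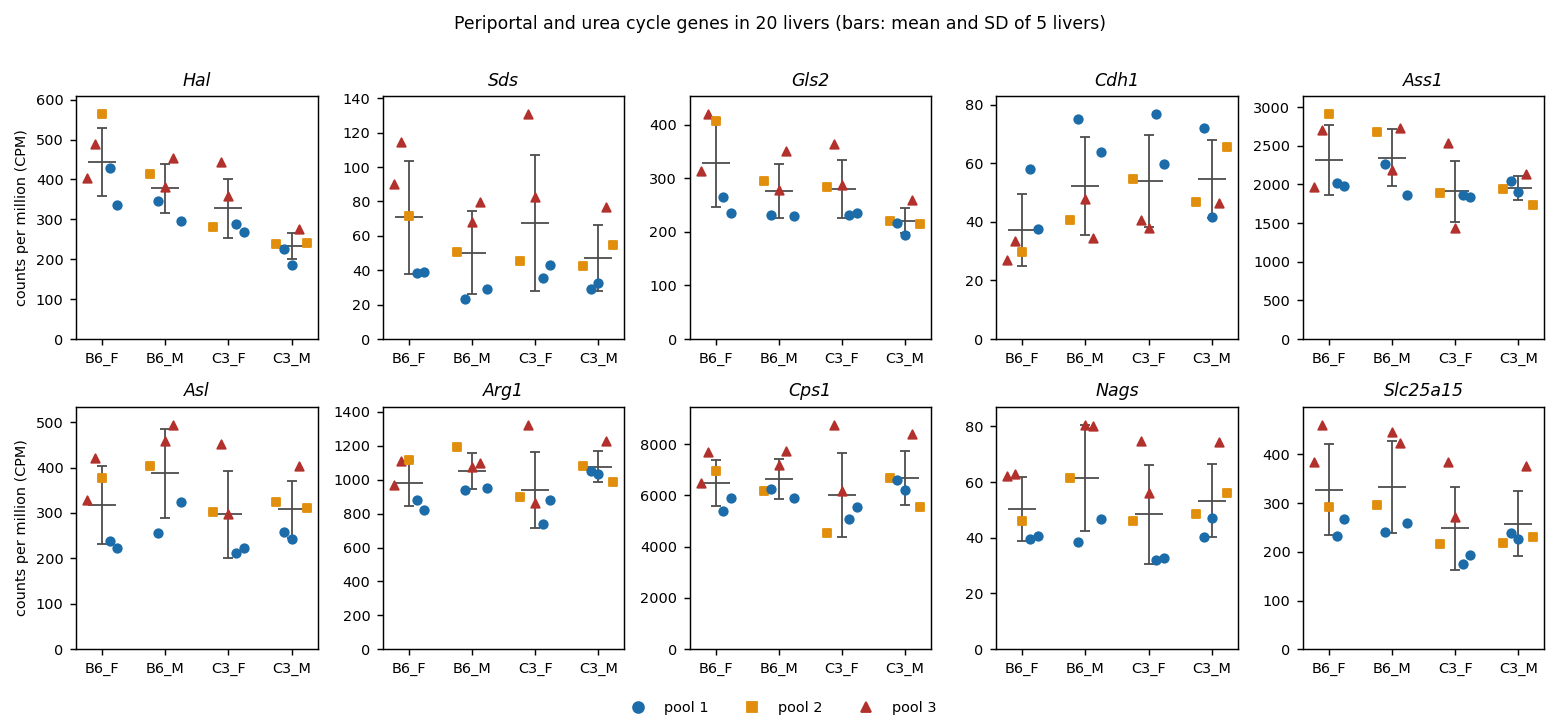
Each point is 1 liver, placed by group on the horizontal axis and by CPM on a linear vertical axis that starts at 0, with the mean and SD of the 5 livers of a group as a horizontal mark and bars. Colour and shape give the sequencing pool, and the pool 3 livers lie highest for Sds, Nags and Slc25a15 in every group, while Hal lies lowest in C3_M, between 185 and 275 CPM.

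Sex and strain differences were asked of each gene with pool in the model, and a gene was called at the study's thresholds, an adjusted p under 0.001 with an absolute log2 fold change over 0.5. A gene that had an adjusted p under 0.05, whatever its fold change, is said to have passed. Few of the 10 genes were called: Hal was lower in C3 males than in B6 males, and no other sex or strain difference reached both thresholds.
For female against male in B6, 0 of 10 genes were called by edgeR, against 6.34% of all genes tested, and 4 passed, 1 higher (16.2% of all genes) and 3 lower (18.4%). In that comparison 6 genes had an unadjusted p under 0.05 and DESeq2 called 0. For female against male in C3, 0 of 10 were called by edgeR, against 6.90% of all genes, and 3 passed, 2 higher (20.1%) and 1 lower (19.9%). There 7 had an unadjusted p under 0.05, DESeq2 called 0 and limma on TPM called 1, Hal.
For C3 against B6 in females, 0 of 10 were called by edgeR, against 9.40% of all genes, and 3 passed, 1 higher (17.7%) and 2 lower (15.3%). There 4 had an unadjusted p under 0.05 and DESeq2 called 0, but without the C3_F liver numbered 2 Hal was called, with a log2 fold change of -0.53. For C3 against B6 in males, 1 of 10 was called, against 9.64% of all genes, and 4 passed, 0 higher (17.0%) and 4 lower (17.5%).
The sex-by-strain interaction, the sex difference in C3 minus that in B6, called 0 of 10 by edgeR, by DESeq2 and by limma, against 0.401% of all genes, and 0 had an unadjusted p under 0.05. None passed in either direction, against 1.98% of all genes higher and 0.978% lower. The share of the 10 genes that passed was thus near that of all genes in the 4 sex and strain comparisons. Genes with an unadjusted p under 0.05 were not counted over all genes, so those counts have no share to be set against.

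The median log2 fold change of the 10 genes was -0.027 for female against male in B6 and -0.074 in C3, against 0.0018 and 0.015 over all genes tested. For C3 against B6 it was -0.12 in females and -0.15 in males, against 0.019 and 0.015. In females 9 of the 10 genes had a negative value, although only 2 of these passed, and the strain and sex comparisons share groups.

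**Figure D2:**
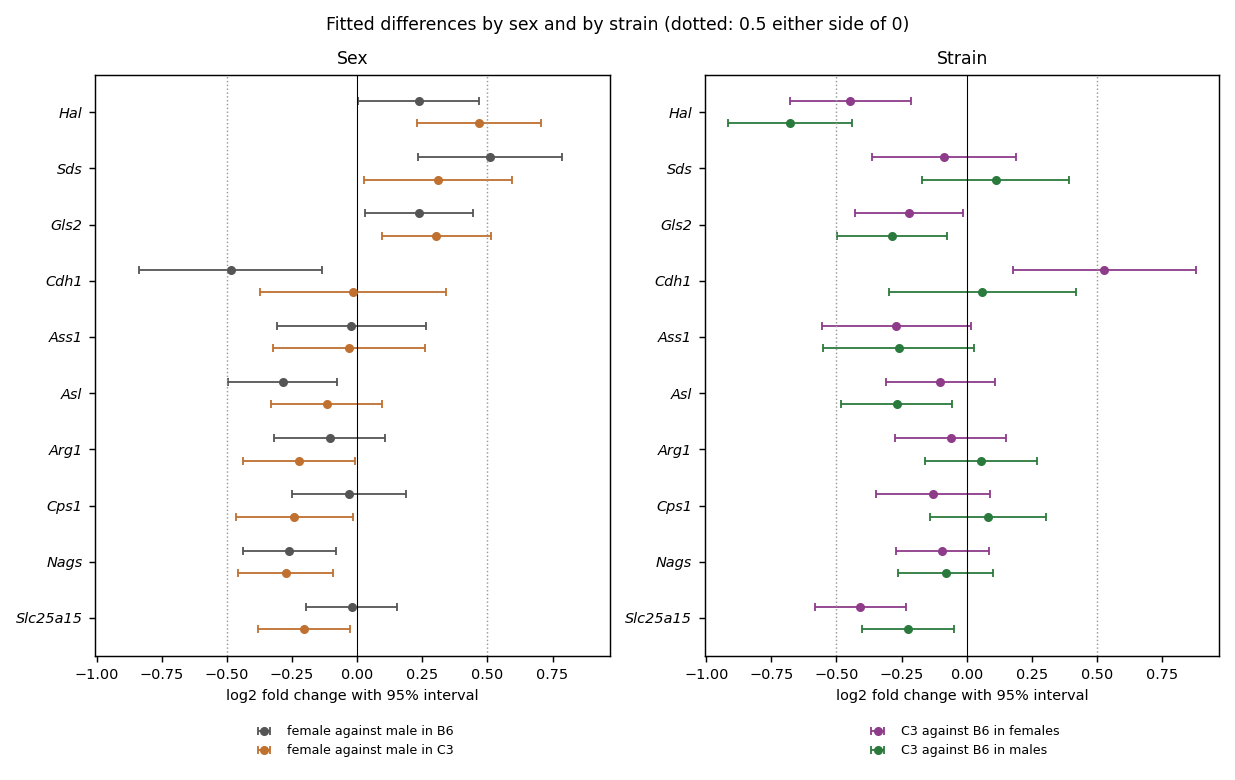
Points give the fitted log2 fold change of each gene and lines its 95% interval, for female against male (left) and C3 against B6 (right), from 20 livers with pool in the model. Dotted lines stand at 0.5 either side of 0, and Hal in males, at -0.68, is the value that was called.

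Gls2 (mm9, chr10:127631691-127647060, plus strand) releases ammonia from glutamine next to the enzyme that uses it. In B6_F livers 1 to 5 its level was 314, 419, 407, 266 and 235 CPM and in B6_M livers 294, 232, 278, 351 and 229 CPM. In C3_F livers it was 283, 364, 287, 231 and 235 CPM and in C3_M livers 220.2, 217, 193, 259 and 214 CPM. All 4 groups overlapped, with the C3_M livers at the lower end.
Gls2 was higher in females in C3, with a log2 fold change of 0.30 (SE 0.10, adjusted p = 0.022), and the value in B6, 0.24 (SE 0.099), missed at an adjusted p of 0.069. It was lower in C3 males than in B6 males, at -0.29 (SE 0.10, adjusted p = 0.033), with -0.17, -0.44 and -0.27 within pools 1, 2 and 3. Leaving out 1 liver raised the adjusted p above 0.05 in 3 of 20 fits for sex in C3 and in 6 of 20 for strain in males. In females the strain value was -0.22 (SE 0.099, adjusted p = 0.096). A difference of Gls2 between the sex effects of the strains was not detected, at 0.067 with a 95% interval from -0.23 to 0.36.

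Nags (mm9, chr11:102006827-102010842, plus strand) makes N-acetylglutamate, without which Cps1 is inactive. Its CPM in B6_F livers 1 to 5 were 62.3, 62.8, 45.9, 39.7 and 40.7, and in B6_M livers 61.5, 38.3, 80.7, 80.0 and 46.7. In C3_F livers they were 46.2, 74.9, 56.1, 32.1 and 32.7, and in C3_M livers 48.5, 40.3, 47.2, 74.4 and 56.2. The groups overlapped widely, and in each the highest livers came from pool 3.
With pool in the model Nags was lower in females in both strains, by log2 fold changes of -0.26 in B6 (SE 0.085, adjusted p = 0.024) and -0.27 in C3 (SE 0.087, adjusted p = 0.018). Within pools 1, 2 and 3 the B6 values were -0.073, -0.42 and -0.36, and the C3 values were -0.43, -0.18 and -0.20. In 4 of 20 fits that left out 1 liver the B6 value had an adjusted p above 0.05, and in 1, without the C3_M liver numbered 3, the C3 value did. Strain values were -0.094 in females and -0.081 in males, and neither passed.

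Cps1 (mm9, chr1:67169601-67277841, plus strand) ranged from 4517 to 8768 CPM, both extremes being C3_F livers, those numbered 1 and 2. Its group means ± SD were 6483 ± 902 in B6_F, 6642 ± 778 in B6_M, 6016 ± 1655 in C3_F and 6687 ± 1052 in C3_M (n = 5 each). No sex or strain comparison passed, nor did the interaction. The sex value in C3 was the largest of these, at -0.24 (SE 0.11, adjusted p = 0.0803), with a 95% interval from -0.46 to -0.017.

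Slc25a15 (mm9, chr8:23486022-23509093, minus strand) carries ornithine into the mitochondrion in exchange for citrulline. In B6_F livers 1 to 5 its level was 385, 462, 292, 232 and 267 CPM and in C3_F livers 215, 385, 272, 175 and 194 CPM. In B6_M livers it was 295, 241, 446, 424 and 259.8 CPM and in C3_M livers 218, 239.7, 226, 376 and 231 CPM. Pool 3 livers were the highest in each group, and the strains overlapped in both sexes when pools were ignored.
Slc25a15 was lower in C3 females than in B6 females, with a log2 fold change of -0.41 (SE 0.083, adjusted p = 8.67e-04), a fold of 0.753 that lay short of the fold threshold. The difference was -0.44, -0.44 and -0.38 within pools 1, 2 and 3. In males it was -0.22 (SE 0.084, adjusted p = 0.046), with -0.10, -0.40 and -0.21 within the pools, and 10 of the 20 fits that each left out 1 liver gave an adjusted p above 0.05. The interaction was -0.18 with a 95% interval from -0.43 to 0.064, so the strain effects were not shown to differ between the sexes.

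Ass1 (mm9, chr2:31325790-31376190, plus strand) had group means of 2314 ± 453 CPM in B6_F, 2347 ± 363 in B6_M, 1909 ± 398 in C3_F and 1950 ± 153 in C3_M (SD, n = 5). Both C3 means were below both B6 means, but the strain values, -0.27 in females (SE 0.14, adjusted p = 0.14) and -0.26 in males (SE 0.14, adjusted p = 0.15), did not pass. Its sex values were -0.022 in B6 and -0.031 in C3.

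Asl (mm9, chr5:130487373-130500201, minus strand) cleaves argininosuccinate and ranged from 212 to 495 CPM. Its group means were 318 ± 86.3 in B6_F, 387 ± 97.9 in B6_M, 297 ± 95.9 in C3_F and 308 ± 63.4 in C3_M (SD, n = 5). Asl was lower in B6 females than in B6 males, at -0.29 (SE 0.099, adjusted p = 0.033), and lower in C3 than in B6 among males, at -0.27 (SE 0.10, adjusted p = 0.046). Within pools 1, 2 and 3 the first was -0.32, -0.094 and -0.35 and the second -0.20, -0.34 and -0.24. Both comparisons use the B6_M group, and of 20 fits that each left out 1 liver, 6 and 11 gave an adjusted p above 0.05.

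Arg1 (mm9, chr10:24635013-24647276, minus strand) had strain values of -0.062 in females, with a 95% interval from -0.27 to 0.15, and 0.055 in males, with an interval from -0.16 to 0.27. Its group means were 979.6 ± 133 CPM in B6_F, 1051 ± 107 in B6_M, 941 ± 224 in C3_F and 1076 ± 91.7 in C3_M (SD, n = 5). The sex values, -0.11 in B6 and -0.22 in C3, did not pass.

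Hal (mm9, chr10:92951513-92979506, plus strand), histidine ammonia lyase, showed the largest strain difference of the 10 genes. In B6_M livers 1 to 5 its level was 413, 346, 382, 455 and 295 CPM, and in C3_M livers 239, 224, 185, 275 and 239.8 CPM. Each C3_M liver was thus below each B6_M liver, which held for 15.1% of all genes tested in one direction or the other. In B6_F livers it was 403, 488, 563, 429.8 and 336 CPM and in C3_F livers 281, 444, 358, 288 and 268 CPM, and these groups overlapped.
Among males Hal was lower in C3 by a log2 fold change of -0.68 (SE 0.11, adjusted p = 1.19e-04), a fold of 0.625, with -0.65, -0.79 and -0.60 within pools 1, 2 and 3. It stayed called when any single liver was left out, but without the pool term the value, -0.70, had an adjusted p of 0.0032 and was not called. With pools 1 and 2 alone, an alternative chosen after seeing the data, the value was -0.69 with an adjusted p of 0.0012, which is above the threshold in a fit of fewer livers.
Among females it was lower in C3 by -0.45 (SE 0.11, adjusted p = 0.0043), with -0.45 within pool 1 and -0.15 within pool 3, and a larger difference in pool 2, where each group had 1 liver. Hal was higher in females than in males in C3, at 0.47 (SE 0.11, adjusted p = 0.0037), and the B6 value was 0.24 (SE 0.11, adjusted p = 0.105). The interaction, 0.23 with a 95% interval from -0.10 to 0.57, did not show the sex effects to differ.
Kupffer cell markers moved with strain as well, and 4 of 5 passed as lower in C3 in each sex, among them Vsig4 (-0.81 in females and -0.57 in males), Adgre1 (-0.94 and -0.91) and Clec4f (-0.55 in females). Their summed level was 223 to 288 CPM in B6_F against 137 to 222 in C3_F, and 151 to 220.2 in B6_M against 106 to 149.8 in C3_M, and none was at 0. Of 4 hepatocyte markers tested, 0 passed as lower in C3 and 2 as higher in each sex, among them Apoa1 (0.84 and 0.71). The hepatocyte markers summed to 84659 to 118056 CPM in B6_F against 123618 to 154400 in C3_F, and to 66400 to 91705 in B6_M against 97417 to 124233 in C3_M. Alb made up most of these sums, with group means of 88003 CPM in B6_F, 122610 in C3_F, 66015 in B6_M and 93641 in C3_M. The part of either marker list in the result was not tested.

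Sds (mm9, chr5:120926556-120933914, plus strand) turns serine into pyruvate and ammonia and varied most among livers. Its CPM in B6_F livers 1 to 5 were 90.2, 115, 71.8, 38.2 and 39.0, and in B6_M livers 50.7, 23.5, 67.8, 79.7 and 29.1. In C3_F livers they were 45.5, 131, 82.5, 35.3 and 43.2, and in C3_M livers 42.3, 28.9, 32.6, 76.7 and 54.9. The coefficient of variation within groups lay between 41.2% and 59.0%, and the groups overlapped.
With pool in the model Sds was higher in females in B6, at 0.51 (SE 0.13, adjusted p = 0.0064), with 0.56, 0.50 and 0.47 within pools 1, 2 and 3. In C3 the value was 0.31 (SE 0.14, adjusted p = 0.076), with 0.35, -0.083 and 0.44 within the pools. Strain values were -0.088 in females and 0.11 in males and did not pass. The Sds locus overlaps Plbd2 and the Gls2 locus overlaps Spryd4, in each case on the opposite strand, and counting was strand-specific.

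Cdh1 (mm9, chr8:109127250-109194147, plus strand) is made by periportal hepatocytes and by bile duct cells. In B6_F livers 1 to 5 its level was 27.1, 33.6, 29.6, 57.9 and 37.5 CPM and in B6_M livers 40.8, 75.1, 47.7, 34.5 and 63.7 CPM. In C3_F livers it was 54.5, 40.6, 37.9, 76.7 and 59.7 CPM and in C3_M livers 46.9, 71.9, 41.7, 46.6 and 65.7 CPM. The B6_F livers included the lowest 3 values, and every group overlapped with the others.
Cdh1 was lower in B6 females than in B6 males, at -0.49 (SE 0.17, adjusted p = 0.032), with -0.57, -0.46 and -0.43 within pools 1, 2 and 3. It was higher in C3 females than in B6 females, at 0.53 (SE 0.17, adjusted p = 0.021). The strain values within the pools were 0.54, 0.88 and 0.38, and in pool 2 each of these groups had 1 liver. The sex and strain differences share the B6_F group, and leaving out 1 liver raised the adjusted p above 0.05 in 6 and 4 of 20 fits, respectively. The values in C3 by sex, -0.017, and in males by strain, 0.060, did not pass, and the interaction was 0.47 (SE 0.24, adjusted p = 0.35).
Of the bile duct markers only Sox9, a transcription factor of duct cells, was called, lower in females in B6 (-1.42, SE 0.17, adjusted p = 5.18e-06) and in C3 (-0.84, SE 0.17, adjusted p = 8.42e-04) and higher in C3 females than in B6 females (0.85, SE 0.17, adjusted p = 9.48e-04). Other markers of that list moved the other way, and in C3 Krt19 (0.66, adjusted p = 0.037) and Spp1 (0.45, adjusted p = 0.018) were higher in females, with a list median of 0.45. Spp1 was also lower in C3 males than in B6 males (-0.67, adjusted p = 0.0013), and no other marker of the 5 tested passed by sex or strain. The 6 markers summed to 22.6 to 40.5 CPM in B6_F, 33.2 to 43.9 in B6_M, 27.2 to 39.8 in C3_F and 21.7 to 29.5 in C3_M. Spp1 made up most of these sums, with group means of 29.8, 31.6, 27.3 and 19.4 CPM in that order. The part of the 6 markers in the Cdh1 values was not tested. Among 5 cadherin partners, the catenins Ctnnb1, Ctnna1, Ctnnd1 and Jup and the cadherin Cdh2, 0 were called by edgeR by sex or strain, and by sex 1 passed as higher and 1 as lower in B6 and 2 and 0 in C3, while by strain 0 and 1 passed in females and 1 and 2 in males.

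The sex values also depended on how the libraries were scaled. On log2(TPM + 0.1) the median of all genes moved from 0.0018 to 0.11 for female against male in B6 and from 0.015 to 0.12 in C3. Relative to that median Nags stood at -0.25 in B6 and -0.29 in C3, Asl at -0.29 in B6 and Cdh1 at -0.49 in B6. Before that subtraction, limma on TPM gave these genes adjusted p-values of 0.0915 to 0.228 in B6 and gave Nags 0.148 to 0.151 in C3, so they no longer passed. In the other direction, Hal in B6 (adjusted p = 0.020 to 0.021), Gls2 in B6 (0.012) and Sds in C3 (0.032 to 0.033), which had missed on counts, passed by limma on TPM as higher in females. Those p-values are also from before the subtraction. Relative to the median on log2(TPM + 0.1), the 3 genes stood at 0.23, 0.23 and 0.27, against 0.24, 0.24 and 0.31 on counts.

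Sequencing pool accounted for more of the variation of most of these genes than sex or strain did. Pool took a larger share of the variance of log2 CPM than strain or sex for 8 of 10 genes, the exceptions being Hal and Ass1. This count was not made over all genes tested, where the median share of pool was also above those of sex and strain. The share was 80.5% for Nags, 78.9% for Sds, 70.7% for Asl, 68.1% for Slc25a15 and 51.3% for Cps1, against a median of 24.3% over all genes tested. It was 41.2% for Gls2, 37.1% for Cdh1, 34.9% for Arg1, 17.6% for Hal and 9.12% for Ass1. Strain took 44.7% for Hal and 28.5% for Ass1, against a median of 8.48%, and sex took at most 18.1%, for Gls2, against a median of 10.9%.

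In a contrast added after seeing the data, pool 3 against pool 1 called 5 of 10 genes, against 20.0% of all genes tested, and 9 passed, 8 higher (29.3% of all genes) and 1 lower (29.0%). Sds was higher in pool 3 by a log2 fold change of 1.42 (SE 0.11, adjusted p = 2.06e-09), a fold of 2.68. Its 8 pool 1 livers lay between 23.5 and 43.2 CPM and its 7 pool 3 livers between 67.8 and 131 CPM.
Nags was higher by 0.83 (SE 0.070, adjusted p = 6.79e-09), with 32.1 to 47.2 CPM in pool 1 and 56.1 to 80.7 CPM in pool 3. Slc25a15 was higher by 0.77 (SE 0.068, adjusted p = 1.50e-08), with 175 to 267 CPM in pool 1 and 272 to 462 CPM in pool 3. For these 3 of 10 genes the pools did not overlap, which was so for 18.3% of all genes tested.
Asl was higher by 0.72 (SE 0.082, adjusted p = 4.00e-07), with 212 to 324 CPM against 297 to 495 CPM. Cdh1 was lower by -0.64 (SE 0.14, adjusted p = 5.41e-04), with 37.5 to 76.7 CPM in pool 1 and 27.1 to 47.7 CPM in pool 3. Of the bile duct markers Sox9 was lower in pool 3, at -0.77 (SE 0.14, adjusted p = 7.74e-05), Spp1 was higher, at 0.40 (SE 0.11, adjusted p = 0.0052), and Krt19, Krt7 and Epcam did not pass. The bile duct markers, mostly Spp1, summed to 21.7 to 40.5 CPM in pool 1 and 29.1 to 43.9 CPM in pool 3, and their part was not tested.
Gls2 (0.45), Hal (0.39), Cps1 (0.37) and Arg1 (0.29) passed as higher without being called, and Ass1 (0.16) had an adjusted p of 0.23. The median over the 10 genes was 0.42, against -0.0011 over all genes.

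Pool 2 against pool 1 called 1 of 10 genes, Sds, at 0.69 (SE 0.12, adjusted p = 4.54e-04), against 1.16% of all genes. Leaving out any of 7 livers, B6_F replicates 3, 4 and 5, B6_M replicates 1 and 2 or C3_M replicates 2 and 5, removed that call, and leaving out B6_M replicate 5 gave 2 calls. In this contrast 5 genes passed as higher (12.6% of all genes), Hal, Sds, Gls2, Asl and Nags, and 0 as lower (10.9%). Each of the 10 genes had a mean CPM in pool 2 between those of pools 1 and 3, which was not counted over all genes. For Sds, Gls2, Asl and Nags the pool 2 means were 53.0, 284, 343 and 51.7 CPM. Their means were 33.7, 229.6, 247 and 39.7 CPM in pool 1 and 91.7, 324, 408 and 70.2 CPM in pool 3. Depth differed between the pools as well, and its part in these values was not tested.

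**Figure D3:**
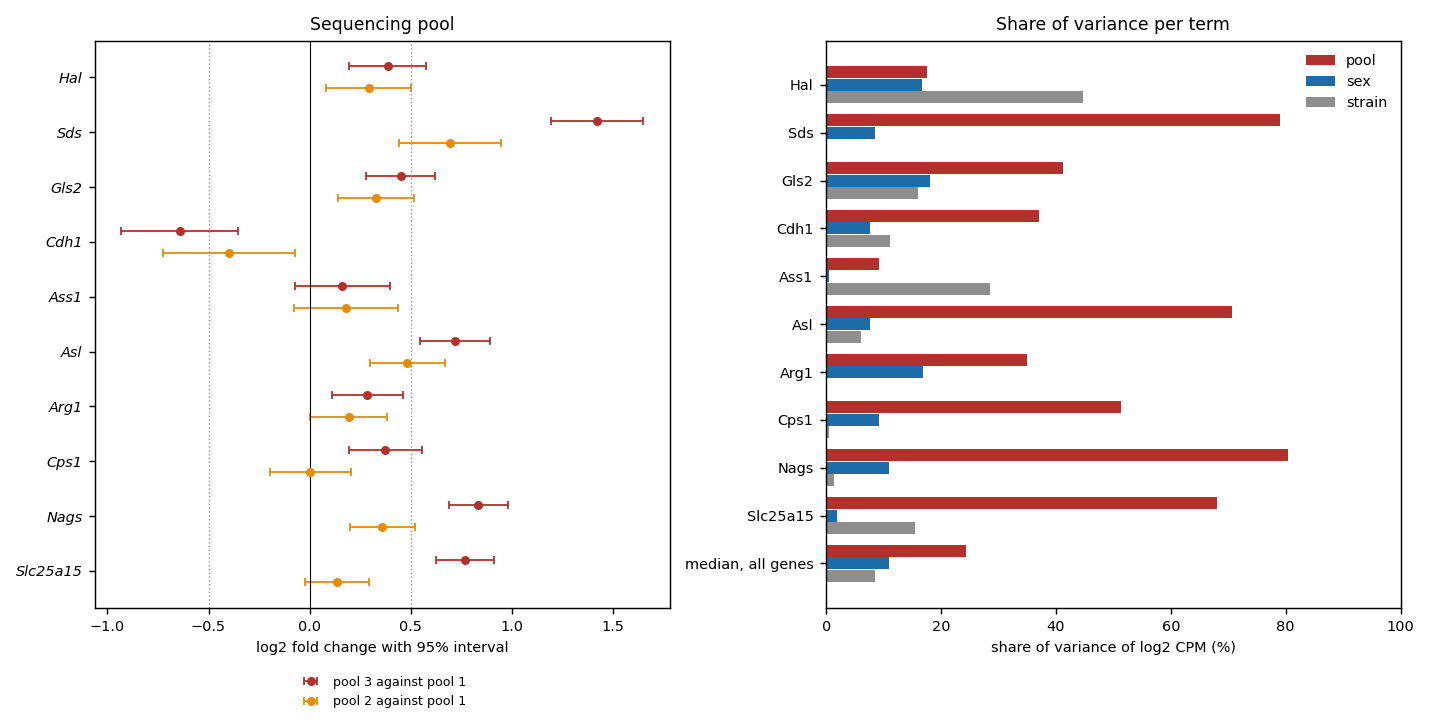
On the left, points and lines give the fitted log2 fold change and 95% interval of each gene for pools 3 and 2 against pool 1, with dotted lines at 0.5 either side of 0. On the right, bars give the percentage of the variance of log2 CPM taken by pool, sex and strain, each adjusted for the others, with the median of all genes at the bottom, and pool reaches 80.5% for Nags and 9.12% for Ass1.

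Many pairs of the 10 genes, though not those with Cdh1, also varied together among livers. After the means of group and pool were removed, 23 of 45 pairs had a Pearson correlation with an adjusted p under 0.05 (permutation test, 100000 resamples within groups, two-sided, Benjamini-Hochberg over 45 pairs), and all 23 were positive. The smallest r among them was 0.54, a value that 26 of the 45 pairs (57.8%) and 3.35% of all pairs of tested genes reached.
Gls2 with Ass1 gave r = 0.86 and rho = 0.90 (n = 20, permutation p = 3.00e-05 and 2.00e-05, adjusted p = 0.0013 and 9.00e-04), and r was 0.83 without the 2 livers farthest from the Gls2 median. Gls2 with Arg1 gave r = 0.73 and rho = 0.84 (permutation p = 1.10e-04 and 5.00e-05, adjusted p = 0.0025 and 0.0011), and 0.69 without 2 livers. Asl with Arg1 gave r = 0.81 and rho = 0.80 (permutation p = 2.40e-04 and 2.50e-04, adjusted p = 0.0030 and 0.0028), and 0.64 without 2 livers.
All 10 pairs among Gls2, Ass1, Asl, Arg1 and Cps1 passed, with r between 0.70 and 0.86. Nags passed with Slc25a15 alone, at r = 0.60 (adjusted p = 0.037 by the same permutation test). Cdh1 passed with none of the 9 others, with r between -0.27 and 0.12.
One liver carried much of this: without the C3_F liver numbered 2, which had the highest Sds, Arg1 and Cps1 of all 20, 7 pairs passed, and without the B6_F liver numbered 1, 12 pairs passed. With pool left in, 40 pairs passed, of which 7 were negative pairs of Cdh1 with another gene, with r between -0.74 and -0.58, and with Spearman's rho 18 passed.

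**Figure D4:**
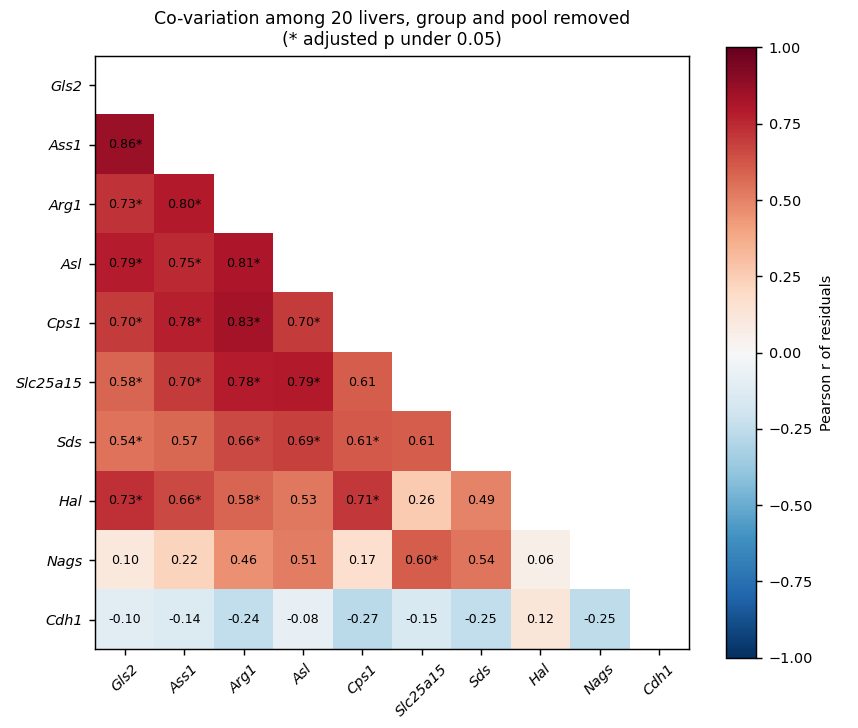
Each cell gives Pearson's r between 2 genes over 20 livers after group and pool means were removed, on a colour scale from -1 to 1, with an asterisk for an adjusted p under 0.05. The block from Gls2 to Cps1 holds values of 0.70 to 0.86, and the Cdh1 row holds values of -0.27 to 0.12.

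Of 11 other genes of the urea cycle and of ammonia entry, 10 were tested and 1 was called in a sex or strain comparison. Got1, the cytosolic aspartate aminotransferase, was higher in females in B6, at 0.91 (SE 0.18, adjusted p = 9.14e-04). By sex 3 passed as higher and 2 as lower in B6, and 4 and 1 in C3, with medians of 0.031 and 0.0090. By strain 0 passed as higher, while 4 passed as lower in females and 3 in males, with medians of -0.18 and -0.19. None passed in the interaction. In pool 3 against pool 1, 5 of 10 were called, all higher, and 7 passed, with a median of 0.52. Among them were Car5a (0.55), Slc25a13 (0.50), Gpt (0.60) and Got1 (0.65), which were picked here by their values. Nags and Slc25a15 differed between these pools in the same direction.

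Of 11 genes for the breakdown of histidine, serine, threonine and glycine, 10 were tested, and more passed as higher than as lower in C3, opposite to Hal. In females 7 passed as higher and 1 as lower, with a median of 0.40, and in males 5 and 1, with a median of 0.22. Agxt, which uses glyoxylate and alanine, was higher in C3 males at 1.11 (SE 0.079, adjusted p = 2.33e-09) and in C3 females at 0.46 (SE 0.077, adjusted p = 1.20e-04). Ftcd, which acts later in the histidine pathway, was higher in C3 females at 0.53 (SE 0.088, adjusted p = 1.21e-04), and Amt was higher in C3 males at 0.51 (SE 0.072, adjusted p = 2.07e-05). In the other sex Amt was higher in C3 females at 0.20 (adjusted p = 0.040), and Ftcd had group means of 305 CPM in B6_M and 346 CPM in C3_M. Gcsh, the carrier protein of the glycine cleavage system, was lower in C3, at -1.19 in females (SE 0.12, adjusted p = 4.64e-07) and -1.27 in males (SE 0.13, adjusted p = 2.30e-07). By sex, 3 passed as higher and 2 as lower in B6, among them Agxt at 0.72 (SE 0.077, adjusted p = 1.40e-06), and 1 and 1 in C3. One gene passed in the interaction, as lower.

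Of 10 other periportal genes, 3 passed as higher and 1 as lower in females in B6, and 3 and 2 in C3, with medians of -0.085 and 0.038. Ctsc, a lysosomal peptidase, was higher in females, at 1.54 in B6 and 1.62 in C3, and Cyp2f2, a periportal cytochrome P450, was lower, at -0.86 and -0.88. By strain 1 passed as higher and 2 as lower in females, and 2 and 3 in males, with medians of 0.0038 and 0.12. Hsd17b13, a lipid droplet protein, was lower in C3, at -0.92 in females and -1.19 in males, and Aldh1b1 was higher in C3 females, at 0.74. These periportal genes thus moved in both directions.
The 12 pericentral genes stood apart from them by strain, since 10 passed as lower in C3 females and 7 in C3 males with 0 higher in either, and their medians were -0.70 and -0.57. Slc1a2, a glutamate carrier, was lower by -2.38 and -1.78, Oat, which takes ornithine out of the cycle, by -1.97 and -1.47, and Lhpp by -1.40 and -0.92. Cyp1a2, a drug-metabolizing cytochrome P450, was lower by -0.79 in females, but its group means in males were 554 CPM in B6_M and 574 CPM in C3_M. Glul, the glutamine synthetase, chosen after its values were seen, was lower by -0.75 and -0.95. Beside these the 10 genes described here had medians of -0.12 and -0.15. By sex 3 passed as higher and 1 as lower in B6, and 1 and 3 in C3.

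Among 5 amino acid transporters, Slc7a2, a carrier of arginine and ornithine, was lower in C3 females at -1.23 (SE 0.16, adjusted p = 1.15e-05). Its group means in males were 422 CPM in B6_M and 253 CPM in C3_M. Slc43a1 was higher in C3 males at 1.02 (SE 0.17, adjusted p = 1.54e-04) and in C3 females at 0.68 (SE 0.17, adjusted p = 0.0043). Among 12 regulators of amino acid breakdown 1 was called by sex or strain, Klf15, a transcription factor induced in fasting, which was lower in females in C3 at -0.77 (SE 0.13, adjusted p = 2.92e-04). By strain 2 of the 12 passed as higher and 1 as lower in females, and 1 and 0 in males.
Markers of the other cell types of the liver were counted in the same way. By sex, 5 of 5 Kupffer cell markers, 3 of 4 sinusoidal endothelial, 3 of 5 stellate and 0 of 2 lymphocyte markers passed as higher in females in B6, and 3, 3, 2 and 2 did in C3, with Vsig4 at 0.75 and 0.51. By strain, 2 endothelial, 3 stellate and 0 lymphocyte markers passed as lower in C3 females, among them Lyve1 at -0.98, and 2, 4 and 2 did in C3 males. Alas2, the one red cell marker tested, was lower in females, at -2.76 in B6 and -3.28 in C3.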

How the data were processed

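The authors deposited a table of raw gene counts for 20 mouse livers. Per the labels and the study's methods, adapters were trimmed with cutadapt 1.9.1, reads were aligned to mm9 with STAR 2.5.1b and counted on RefSeq genes with featureCounts of Subread 1.5.0-p1, by strand, without multimapping or multi-overlapping reads. The authors also deposited TPM values, for which the definition of gene length is not given in the sources used here. The headers of the symbol and identifier columns are exchanged and were read by content.

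Counts were filtered with filterByExpr, which left 13704 genes, scaled with TMM and fitted with the quasi-likelihood test of edgeR 4.0.16 in R 4.3.3, in 1 model of group and pool over 20 livers. Benjamini-Hochberg adjustment ran over the 13704 genes. Each liver was a separate mouse. CPM are on TMM-scaled library sizes, and log2 CPM used a prior count of 2. Within-pool values are differences of mean log2 CPM over 1 or 2 livers per group and were not tested. In pool 2 they set 1 liver against 1 for sex in B6 and for strain in females. Shares of variance are type II sums of squares, each term adjusted for the others, and need not add to 100%. Scripts were tested on simulated data. Alternatives were DESeq2 1.42.0, RLE scaling, no filter, no pool term, a replicate block, only the groups compared, limma 3.58.1 on log2(TPM + 1) and log2(TPM + 0.1), and each liver left out. Pool contrasts and a fit of pools 1 and 2 alone were added after seeing the data.

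The members and gene lists were chosen with earlier results of these data known. All 10 members are named, and a gene of another list is named where it was called in a sex or strain comparison or the interaction, at most 4 per list by adjusted p. Alb, Glul, Car5a, Slc25a13, Gpt, Krt19, Krt7, Epcam, Spp1 and the cadherin partners are named outside that rule, after their values were seen. Tf matched no row by symbol, and Cftr, Cd8a, Ncr1, Arg2, Tdh and the globin genes did not pass the filter or had more than 1 locus. The values of 1 gene of these lists are not reported here.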

Additional observations from a re-analysis of the deposited data

Results flagged for a closer look

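Dixon's test was applied to the CPM of each of the 10 genes in each of the 4 groups of 5 livers, and 2 of 40 groups held a liver that stood apart, where chance alone flags about 1 in 20. Slc25a15 in the C3_M liver numbered 4, which is the only pool 3 liver of its group, stood at 376 CPM against 218 to 239.7 CPM in the other 4, with a gap of 0.862 of the group's range. Arg1 in the C3_F liver numbered 2, also from pool 3, stood at 1326 CPM against 738 to 898 CPM in the others, with a gap of 0.727 of the range.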

How the results depend on the processing

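With an adjusted p under 0.05 and no fold threshold, the number of the 10 genes called was 4 by sex in B6, 3 by sex in C3, 3 by strain in females, 4 by strain in males, 9 for pool 3 and 5 for pool 2 against pool 1. By strain in males it fell from 1 to 0 without the pool term and with pools 1 and 2 alone. By sex in C3 it was 1 with limma on log2(TPM + 1), with limma on log2(TPM + 0.1) and with the replicate block, in each case Hal. The replicate numbers do not pair the mice (correlations between same-numbered livers fell as low as -0.50 with group means removed and -0.29 with group and pool means removed), and with the block the count for pool 2 fell to 0 and 31 pairs co-varied. Leaving out each liver gave 0 to 0 by sex in B6, by sex in C3 and in the interaction, 0 to 1 by strain in females, 1 to 1 by strain in males, 4 to 5 for pool 3, 0 to 2 for pool 2 and 7 to 26 co-varying pairs. With pool left in, 40 pairs co-varied.

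Of the members' log2 fold changes by sex and strain under settings other than a left-out liver, 392 kept their side of 0.05 or moved by less than the residual SD, 30 lost it, 13 gained it, 5 moved and none that had passed changed sign. Without the pool term Hal in males was the 1 strain difference that still passed, Hal in females having an adjusted p of 0.064 and Slc25a15 of 0.31 in females and 0.33 in males. The cause was not tested.

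Over all genes, the number called without the pool term was 421 by sex in B6, 482 by sex in C3, 815 by strain in females and 20 in the interaction, against 869, 945, 1288 and 55. With pools 1 and 2 alone it was 380, 428, 626, 786 by strain in males (against 1321) and 4. DESeq2 called 181 in the interaction, the fit of only the groups compared called 625 by sex in C3, and the replicate block called 47 for pool 2, against 159. Leaving out a liver gave 32 to 55 in the interaction, 101 to 171 for pool 2 and 662 to 1110 by sex in C3. On log2(TPM + 1) and log2(TPM + 0.1), 68.8% and 71.6% of calls by sex in B6 were higher in females, against 50.9%, and 73.0% and 77.4% in C3, against 59.6%. For pool 3, 66.4% were higher on log2(TPM + 1), against 56.1%.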
